A study of Mus musculus with 6 samples.

Results

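The genes described here are those of the mouse mitochondrial genome, taken as the rows of a gene count table whose chromosome is MT. These were 37 of 54532 rows, made up of 13 protein-coding genes, 2 rRNA genes and 22 tRNA genes. Bulk RNA-seq was done on 6 libraries labelled NIT-1, an insulinoma cell line of the mouse that the labels list as beta cells. The 3 samples called EV_Tm were kept for 16 h with hucMSC-EVs, vesicles that mesenchymal stem cells of the human umbilical cord release, and the 3 called PBS_Tm with PBS for as long. All 6 were next exposed to Tm for 8 h. Tm is read as tunicamycin, which blocks N-linked glycosylation and so causes endoplasmic reticulum stress. A label of the PBS_Tm samples reads "none treated", but their titles and the design text place them in the stressed arm. No library without Tm was analysed here, and separate cultures are not stated for the samples within a group, so the spread that p-values rest on may be technical.

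The mitochondrial genome is a small circular DNA that encodes core subunits of respiratory complexes I, III and IV and of the ATP synthase (complex V), together with the rRNAs and tRNAs that translate them inside the organelle. It is copied into long transcripts of its heavy and light strands, and the tRNAs that lie between the other genes are cut out to release the mRNAs and rRNAs. All other subunits of these complexes, and all proteins of mitochondrial transcription, RNA processing and translation, are nuclear genes. In beta cells the respiratory chain couples glucose breakdown to the ATP signal for insulin release. The series title names mitochondrial dysfunction under endoplasmic reticulum stress as its subject.

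The libraries held 28654248 to 32550268 counts, and 16844 genes had enough counts to be tested. Of 10 beta-cell markers 8 had at most 3 counts in every library, and Ins2, Iapp, Pdx1 and Nkx6-1 were among the 7 at 0 in all, so the labelled cell type was not borne out by its defining markers. Of 6 marker lists for other cell types, the 5 ductal and epithelial genes had a summed level of 61.4 to 63.3 CPM in PBS_Tm and 80.9 to 83.7 in EV_Tm, with Krt19 at 0. The 5 blood genes had 3.16 to 4.71 and 4.75 to 6.56 CPM in the same order, and the endothelial genes 31.24 to 33.47 and 29.55 to 31.17 CPM. The fibroblast genes (15.2 to 16.5 and 14.9 to 18.5 CPM), the acinar genes (23.7 to 30.2 and 29.5 to 34.2 CPM) and those of other islet endocrine cells (0.922 to 1.30 and 1.07 to 1.95 CPM) overlapped between the groups. Of the 6 acinar genes 4 had at most 3 counts in every library, with Cpa1, Prss2 and Amy2a5 at 0, and Cela1 had the most counts. Kdr of the endothelial list and Sst of the other islet list were also at 0. The part of these lists in the results was not tested. These are bulk libraries, in which fewer cells with a transcript and less of it per cell cannot be told apart.

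Of the 37 mitochondrial genes, 16 had any counts and 15 passed the filter on low counts. The 21 genes without a single count in any library were all tRNA genes. With 0 counts, a level of up to 3 counts remains possible, which is 0.0922 to 0.105 CPM (counts scaled to library size) depending on the library (counting error only). The tRNA genes are 59 to 75 bases long and most abut their neighbours: apart from the 32 bases between mt-Tn and mt-Tc, no gap between a tRNA gene at 0 and an annotated neighbour exceeded 5 bases. The exception was mt-Tp, the tRNA gene for proline, with 588, 694 and 749 counts in PBS_Tm and 1055, 761 and 924 in EV_Tm. It is the last annotated gene of the MT sequence (minus strand), and no gene follows it before the control region. At the opposite end, mt-Tf, the tRNA gene for phenylalanine, starts at base 1 of the sequence, so on the circle it borders the same stretch without annotated genes as mt-Tp, is separated from mt-Rnr1 by 1 base and had 0 counts. The sequences of both are shown because they mark the ends of the annotated genes (GENCODE M21, GRCm38, 5′ to 3′ on the gene's strand, at MT:15356-15422 and MT:1-68).
mt-Tp: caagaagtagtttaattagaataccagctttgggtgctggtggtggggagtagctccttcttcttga
mt-Tf: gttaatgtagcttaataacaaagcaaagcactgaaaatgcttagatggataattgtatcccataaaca

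Several protein-coding genes also share bases. The gene mt-Atp8, for a small subunit of the ATP synthase, had 4 to 7 counts per library and was not tested. Its last 43 bases are also the start of mt-Atp6, another ATP synthase subunit, which leaves 161 of its 204 bases to itself. In the same way the end of mt-Nd4l and the start of mt-Nd4, both complex I genes, share 7 bases. The stretches below show these overlaps in capitals (plus strand, MT:7915-7981 and MT:10155-10185). How reads that touch several genes were counted is not given in the sources used here.
mt-Atp8 and mt-Atp6: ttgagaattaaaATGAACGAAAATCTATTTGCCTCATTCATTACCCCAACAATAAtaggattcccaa
mt-Nd4l and mt-Nd4: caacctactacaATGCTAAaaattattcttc

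A stretch of chromosome 1 repeats the middle of the mitochondrial genome. It holds 7 annotated unprocessed pseudogenes between 24611535 and 24616197 (GRCm38), on the minus strand, which follow the order from mt-Co1 to mt-Nd4. Gm28661 is identical to mt-Co2 over all 681 aligned bases, Gm10925 to mt-Atp6 over 678, Gm28437 to mt-Co3 over 783, Gm28438 to mt-Nd3 over 342, Gm10222 to mt-Nd4l over 294 and Gm28439 to the start of mt-Nd4 over 876. Gm29216 matches the end of mt-Co1 over 483 bases with 1 difference, A1066T, counted from the 5′ end of mt-Co1 and with the base of mt-Co1 written before the position. No gene is annotated in the 233 bases between Gm10925 and Gm28661, the place that corresponds to mt-Atp8. A copy of all of mt-Co1 on chromosome 2, Gm13340, differs at 37 of 1545 bases. The 50 bases at the start of mt-Co3 (MT:8607-8656) and Gm28437 (1:24613922-24613971, minus strand) are shown because no letter tells them apart.
mt-Co3: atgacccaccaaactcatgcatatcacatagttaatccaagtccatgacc
Gm28437: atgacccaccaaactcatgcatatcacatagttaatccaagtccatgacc

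For mt-Co1, which encodes the catalytic subunit of cytochrome c oxidase, positions 1063 to 1112 (MT:6390-6439) are shown beside Gm29216 (1:24616139-24616188, minus strand), with the single difference in capitals.
mt-Co1: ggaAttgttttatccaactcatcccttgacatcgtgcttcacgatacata
Gm29216: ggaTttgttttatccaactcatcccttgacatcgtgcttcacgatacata

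The same positions of mt-Co1 differ from Gm13340 (2:22588536-22588585, minus strand) by T1072C, in capitals.
mt-Co1: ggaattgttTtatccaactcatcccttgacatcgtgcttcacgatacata
Gm13340: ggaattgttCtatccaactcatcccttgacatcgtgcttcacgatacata

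The counted level per length differed widely between the protein-coding genes. Levels are given as RPKM, computed here as CPM divided by gene length in kilobases. In PBS_Tm the order began with mt-Co1 at 6919 ± 106 (SD, n = 3 for all levels), mt-Cytb, the complex III subunit, at 2943 ± 106 and the complex I genes mt-Nd1 at 2816 ± 69, mt-Nd5 at 1719 ± 82, mt-Nd2 at 1450 ± 89, mt-Nd4 at 1362 ± 57 and mt-Nd6 at 1215 ± 89. The rRNA genes mt-Rnr2 and mt-Rnr1 followed at 556 ± 29 and 505 ± 28. How RNA was selected for the libraries was not taken into account. The place of the rRNA genes in this order, like their share of mitochondrial counts below, is thus one of counted reads, not of abundance in cells. Far below came mt-Co2 at 142 ± 8, mt-Co3 at 77.2 ± 3.9, mt-Atp6 at 75.8 ± 5.7, mt-Nd3 at 18.7 ± 3.2, mt-Nd4l at 17.04 ± 2.91 and mt-Atp8 at 0.781 ± 0.152. The libraries overlapped between the neighbours mt-Cytb and mt-Nd1, mt-Nd2 and mt-Nd4, mt-Rnr2 and mt-Rnr1, mt-Co3 and mt-Atp6, and mt-Nd3 and mt-Nd4l, and between no other neighbours. In EV_Tm the order of mt-Cytb (3280 ± 6) and mt-Nd1 (3736 ± 28) was the reverse, with no overlap.

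The 5 genes that share at least 98% of their 50-base windows with a nuclear transcript were also the lowest apart from mt-Atp8. These were mt-Co2 (100%), mt-Co3 (99.9%), mt-Atp6 (99.5%), mt-Nd4l (98.8%) and mt-Nd3 (98%), and their levels in PBS_Tm were 20.6 to 173-fold below that of mt-Cytb. Genes with partial copies, mt-Nd4 (62.2%) and mt-Co1 (51.1%), were not among the low ones. For mt-Cytb, mt-Nd1, mt-Nd6, mt-Rnr1 and mt-Atp8 no such window was found, and for mt-Nd2, mt-Nd5 and mt-Rnr2 at most 8.19% were shared. The search covered annotated transcripts only, so the unannotated stretch that corresponds to mt-Atp8 was not compared. With the full count of a gene divided by its unshared windows alone, mt-Nd4 stood at 3740 CPM per kilobase in PBS_Tm, beside 3074 for mt-Cytb, 2967 for mt-Nd1 and 14624 for mt-Co1. Reads from shared windows, if counted, were not taken out of these values, so they are upper limits for the unshared part. Whether reads that match several places were left out of the counts is not given in the sources used here, and the part of the copies in these levels was not tested.

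**Figure D1:**
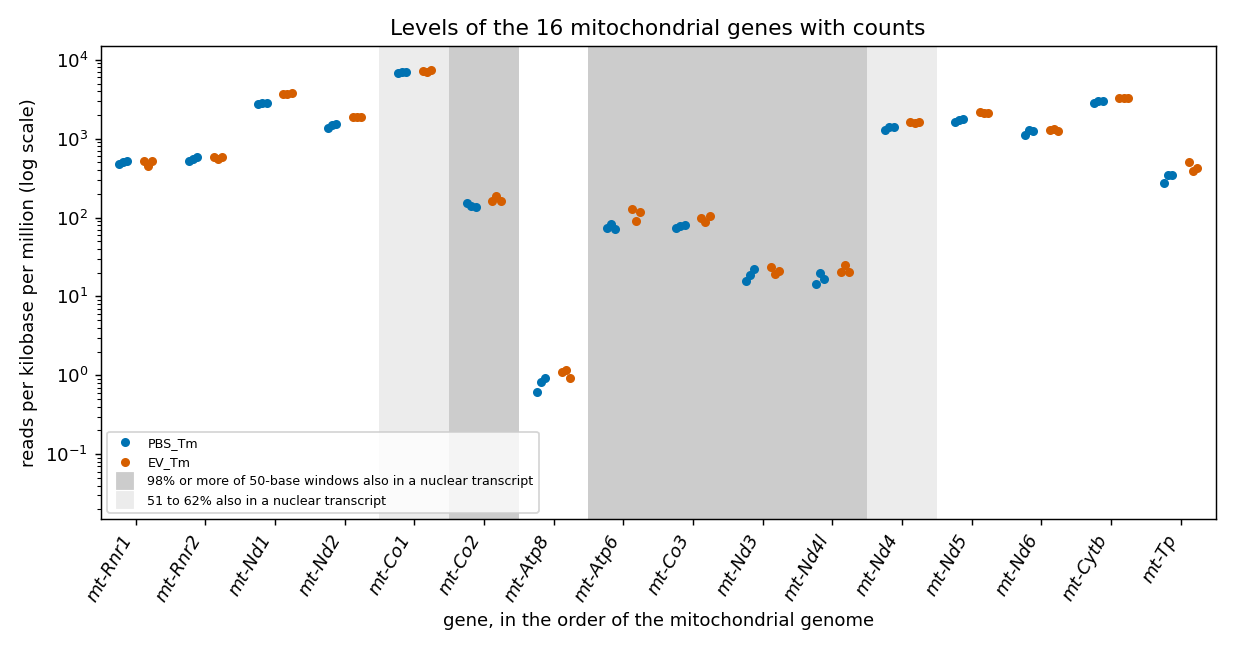
RPKM (log scale) of the 16 mitochondrial genes with counts, in genome order, with 1 point per library (blue PBS_Tm, orange EV_Tm). Dark bands mark the 5 genes that share at least 98% of their 50-base windows with a nuclear transcript and light bands those with partial copies, mt-Co1 and mt-Nd4. The dark bands hold levels of 14.3 to 189, against 1114 to 7414 for the other protein-coding genes except mt-Atp8.

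The comparison asks how vesicle pretreatment changes mitochondrial transcripts under stress. Of the 15 mitochondrial genes tested, 10 rose in EV_Tm and 0 fell (edgeR quasi-likelihood, adjusted p under 0.05 over all genes), where 22.6% of all tested genes were called higher and 24.7% lower. By class, 9 of 12 tested mRNA genes, 0 of 2 rRNA genes and the only tested tRNA gene rose. The groups did not overlap for 11 of the 15, against 54.5% of all tested genes (26.6% with EV_Tm higher). The median log2 fold change was 0.27 over the 15 and 0.01 over all tested genes. The 22 members left out by the filter are not covered by these counts. Those not called were mt-Rnr1, mt-Rnr2, mt-Nd6 and the short genes mt-Nd3 and mt-Nd4l, which had 173 to 259 and 135 to 216 counts per library. Scaled on plain library size 12 rose, and 9 did so with the DESeq2 test.

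Among complex I genes, whose products form the proton-pumping membrane arm, the 4 with the highest counts rose. For mt-Nd1 the libraries stood at 2618, 2734 and 2731 CPM in PBS_Tm and 3576, 3548 and 3602 in EV_Tm. It was 1.33-fold higher (log2 fold change 0.41 ± 0.03, SE, edgeR adjusted p = 2.44e-11), and its lowest EV_Tm library lay far above its highest PBS_Tm library. For mt-Nd2 the values were 1402, 1536 and 1578 against 1951, 1939 and 1959 CPM, a 1.29-fold difference with no overlap (edgeR adjusted p = 7.45e-09). For mt-Nd5 they were 2978, 3152 and 3275 against 3970, 3834 and 3912 CPM, 1.246-fold (edgeR adjusted p = 1.52e-08). In all 3 genes the EV_Tm libraries lay closer together than those of PBS_Tm. The gene mt-Nd4 had 1787, 1934 and 1911 CPM in PBS_Tm and 2244, 2199 and 2226 in EV_Tm, 1.18-fold (edgeR adjusted p = 1.21e-06).

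The short complex I genes were less precise. The values of mt-Nd4l were 4.24, 5.96 and 4.98 CPM in PBS_Tm and 6.10, 7.45 and 6.12 in EV_Tm, apart by little, and its log2 fold change of 0.37 ± 0.16 (SE) did not pass (edgeR adjusted p = 0.0536). Summed with its nuclear copy it did (adjusted p = 0.00306), and over its alternatives the adjusted p ranged from 0.00306 to 0.328. The values of mt-Nd3, 5.44, 6.46 and 7.65 against 8.32, 6.79 and 7.26 CPM, overlapped between groups (log2 fold change 0.19 ± 0.14, edgeR adjusted p = 0.288). The gene mt-Nd6 is the only protein-coding gene on the light strand and overlaps the end of mt-Nd5 by 14 bases. It had 578, 664 and 650 CPM in PBS_Tm and 665, 682 and 651 in EV_Tm, overlapping, with a log2 fold change of 0.08 ± 0.04 (edgeR adjusted p = 0.142). The count of mt-Nd6 divided by that of mt-Nd5 was 0.194, 0.211 and 0.199 in PBS_Tm and 0.168, 0.178 and 0.166 in EV_Tm, with no overlap (exact permutation p = 0.1, the smallest that 3 against 3 can give). Strand-aware counting is not stated in the sources used here, and reads from the opposite strand of mt-Nd6 cannot be told apart.

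The cytochrome b gene mt-Cytb, the only mitochondrial gene of complex III, had 3227, 3439 and 3434 CPM in PBS_Tm and 3745, 3758 and 3754 in EV_Tm. It was 1.11-fold higher (edgeR adjusted p = 1.34e-04), and the EV_Tm libraries were nearly equal. In complex IV, mt-Co1, the mitochondrial gene with the most counts, had 10502, 10800 and 10769 CPM in PBS_Tm and 11130, 10933 and 11455 in EV_Tm. Its groups were apart by a narrow margin, and its 1.04-fold rise just passed (log2 fold change 0.06 ± 0.03, edgeR adjusted p = 0.0468). That call was lost without any 1 of 5 libraries: adjusted p was 0.112 and 0.0579 without PBS_Tm replicates 1 and 2, and 0.132, 0.0690 and 0.265 without EV_Tm replicates 1, 2 and 3. The DESeq2 test gave 0.0636.

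The other complex IV genes, mt-Co2 and mt-Co3, rose 1.21-fold and 1.26-fold (edgeR adjusted p = 2.23e-04 and 6.86e-05). For mt-Co2, whose product receives electrons from cytochrome c, the values were 104, 96.0 and 92.9 CPM in PBS_Tm and 112, 129 and 113 in EV_Tm. For mt-Co3, a structural core subunit, they were 57.2, 61.5 and 63.0 against 77.3, 69.3 and 81.6 CPM. The ATP synthase gene mt-Atp6, which encodes part of the proton channel, had the largest rise of the tested members, 1.49-fold (log2 fold change 0.57 ± 0.09, edgeR adjusted p = 6.83e-06). Its values were 49.7, 56.1 and 49.0 CPM in PBS_Tm and 88.8, 60.9 and 80.6 in EV_Tm, so EV_Tm replicate 2 lay close to the PBS_Tm libraries. All 3 genes belong to the set with identical nuclear copies.

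The rRNA genes did not pass. The small-subunit rRNA gene mt-Rnr1 had 453, 490 and 505 CPM in PBS_Tm and 493, 433 and 495 in EV_Tm (log2 fold change -0.03 ± 0.05, edgeR adjusted p = 0.685). The large-subunit gene mt-Rnr2 had 834, 879 and 925 CPM against 930, 869 and 938 (log2 fold change 0.05 ± 0.04, edgeR adjusted p = 0.296). Both sets of values overlapped between the groups. The sign of mt-Rnr1 changed with the scaling, since its log2 fold change was 0.01 on plain library size. The tRNA gene mt-Tp had mean levels of 21.6 ± 2.7 and 29.6 ± 3.9 CPM (SD) in PBS_Tm and EV_Tm, with no overlap between libraries of 18.5 to 23.3 and 26.2 to 33.9 CPM, and was 1.37-fold higher (log2 fold change 0.46 ± 0.10, edgeR adjusted p = 3.63e-04). It lies on the minus strand, and as for mt-Nd6, reads from the opposite strand cannot be told apart, nor can the tRNA and its precursor. Nuclear genes for small RNAs moved in the same direction: the share of snoRNA genes went from 0.00770% to 0.0118% of all counts (ratio 1.53), and that of miRNA genes from 0.0420% to 0.0566% (ratio 1.35). Their part in the value of mt-Tp was not tested.

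**Figure D2:**
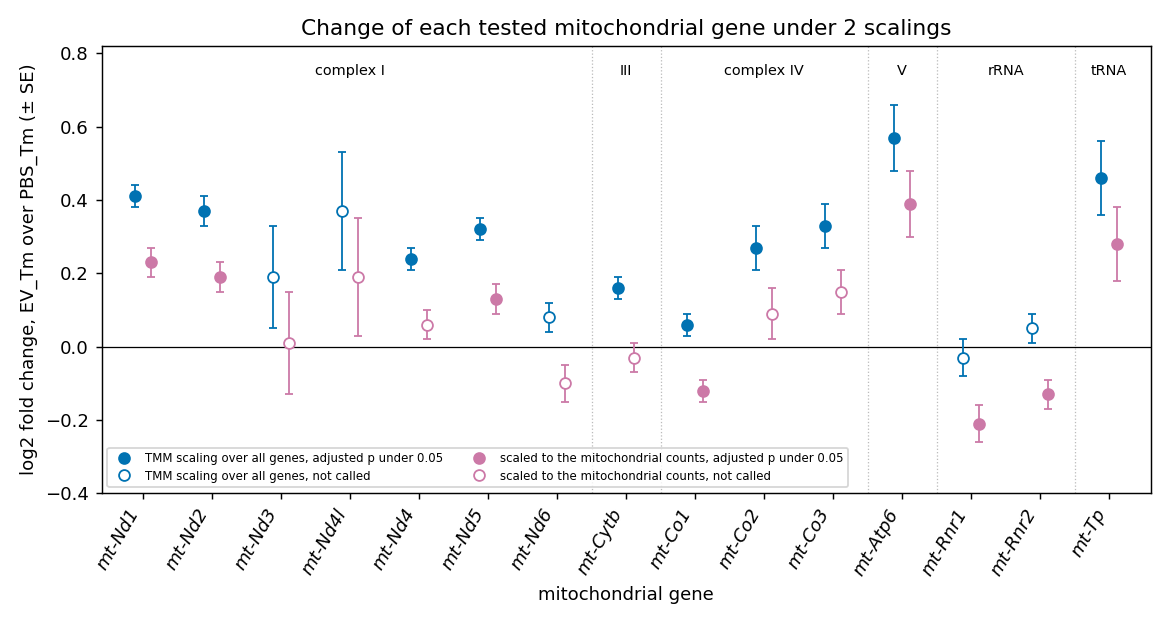
Log2 fold change of EV_Tm over PBS_Tm with its SE for the 15 tested mitochondrial genes, by respiratory complex and RNA class. Blue points are scaled over all genes, purple points to the mitochondrial counts of each library, and filled points have an adjusted p under 0.05. In blue, all points but mt-Rnr1 (-0.03) lie above 0, and in purple mt-Co1, mt-Rnr1 and mt-Rnr2 are filled below 0.

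As a share of all counts, the mitochondrial genome held 2.43%, 2.54% and 2.57% in PBS_Tm and 2.94%, 2.88% and 2.97% in EV_Tm. The groups did not overlap, and the ratio of their means was 1.17 (exact permutation p = 0.1, two-sided, the smallest that 3 against 3 allows). The mRNA genes accounted for nearly all of the difference, at 2.38% ± 0.07 and 2.79% ± 0.04 (SD over 3 libraries per group, exact permutation p = 0.1, adjusted over the 3 classes 0.15). The rRNA genes took 0.134% ± 0.007 and 0.140% ± 0.008 and overlapped between the groups (exact permutation p = 0.3). The tRNA class, which is mt-Tp alone, took 0.00213% ± 0.00027 and 0.00300% ± 0.00039 (exact permutation p = 0.1, adjusted 0.15). Divided by the TMM-scaled library size in place of all counts, the difference between the groups was 0.344 percentage points for all mitochondrial genes, against 0.418. For comparison, the ratio of mean shares was 1.15 for nuclear processed pseudogenes and 0.992 for nuclear protein-coding genes.

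Within the mitochondrial counts the balance of the genes also differed, a comparison that does not depend on the scaling of the libraries. The 7 complex I genes together took 38.1%, 38.8% and 39.0% of mitochondrial counts in PBS_Tm and 42.8%, 42.9% and 42.2% in EV_Tm. In the opposite direction, mt-Co1 took 42.7%, 41.7% and 41.4% in PBS_Tm and 38.3%, 38.4% and 39.1% in EV_Tm. As parts of the same total these shares are not independent, and in CPM mt-Co1 was not lower in EV_Tm. The share of mt-Cytb was 13.20% ± 0.09 and 12.97% ± 0.20 and overlapped. The rRNA genes took 5.34% ± 0.14 and 4.79% ± 0.19 (SD, n = 3 each), with no overlap. Of 23 such shares compared, none could reach an exact permutation p under 0.1, and the adjusted p was 0.164 for each share whose groups did not overlap.

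A fit with each library scaled to its mitochondrial counts called 8 of the 15 genes, where 49.8% of all tested genes were called. This scaling moved the median log2 fold change of all genes by -0.18. In it mt-Nd1 (0.23 ± 0.04), mt-Nd2 (0.19 ± 0.04), mt-Nd5 (0.13 ± 0.04), mt-Atp6 (0.39 ± 0.09) and mt-Tp (0.28 ± 0.10) were called higher, where 10.8% of all tested genes were (log2 fold change with SE). Called lower were mt-Co1 (-0.12 ± 0.03), mt-Rnr1 (-0.21 ± 0.05) and mt-Rnr2 (-0.13 ± 0.04), against 38.9% of all tested genes. The edgeR adjusted p was 5.06e-06 for mt-Nd1, 4.35e-04 for mt-Atp6, 0.00216 for mt-Co1 and 6.36e-04 for mt-Rnr1. Since mt-Co1 is a large part of the total, it also weighs on the scale used here.

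**Figure D3:**
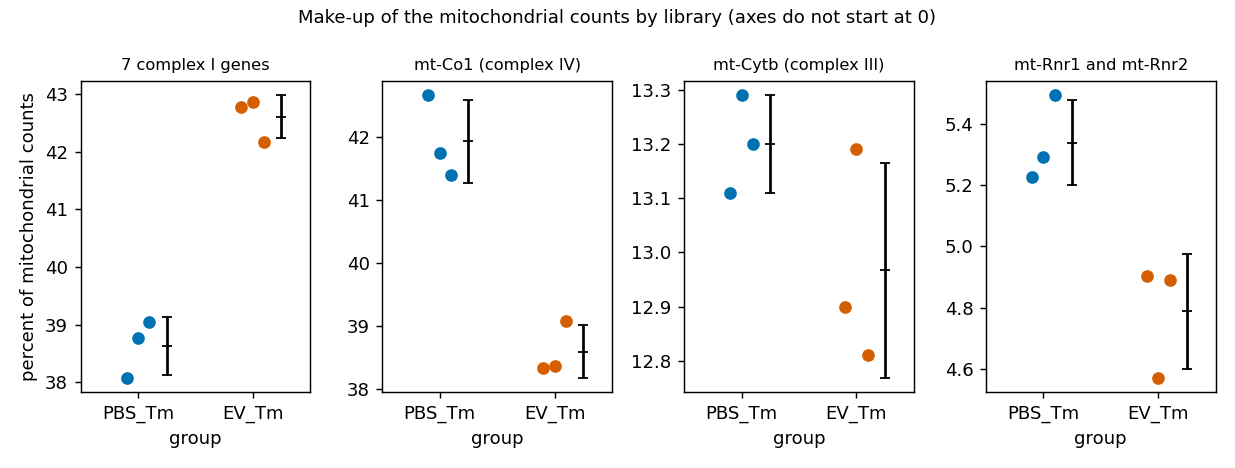
Percent of the mitochondrial counts taken by the 7 complex I genes, by mt-Co1, by mt-Cytb and by the 2 rRNA genes, with 1 point per library and the mean ± SD beside it. The vertical axes do not start at 0. Complex I genes lie higher in every EV_Tm library (42.2% to 42.9%) than in any PBS_Tm library (38.1% to 39.0%), while mt-Co1 and the rRNA genes lie lower.

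The pseudogenes on chromosome 1 were compared in the same fit. Of the 7, 6 were called higher, where 22.6% of all tested genes were, and Gm28438, the copy of mt-Nd3, was not (edgeR adjusted p = 0.182), and mt-Nd3 was itself not called. Gm10925, the copy of mt-Atp6, had 68.5, 69.3 and 69.0 CPM in PBS_Tm and 85.5, 97.6 and 86.8 in EV_Tm (1.30-fold, edgeR adjusted p = 2.12e-06). EV_Tm replicate 2 was thus the highest library for Gm10925 and the lowest of its group for mt-Atp6. Gm28437, the copy of mt-Co3, had 52.1, 57.5 and 54.1 CPM against 77.0, 71.9 and 73.1 (1.36-fold, edgeR adjusted p = 3.90e-07). The counts of Gm10925 and Gm28437 were of the same size as those of their members, which did not hold for all pairs. The member held 59.2% of the pair's counts for mt-Co2, 44.8% for mt-Atp6, 51.6% for mt-Co3, 43.3% for mt-Nd4l and 24.8% for mt-Nd3, but 99.6% for mt-Co1 and 98.5% for mt-Nd4. Which counts belong to which row of a pair cannot be told apart from the table.

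Summed with their copies, mt-Atp6, mt-Co2, mt-Co3, mt-Nd4l and mt-Nd3 each had a lower relative spread in EV_Tm than alone. The coefficient of variation was 8.19% alone and 5.12% summed for mt-Co3, 11.8% and 7.08% for mt-Nd4l, and 10.47% and 9.852% for mt-Nd3. The copies of these genes, Gm28437, Gm10222 and Gm28438, each had a lower relative spread in EV_Tm than the sum. Only for mt-Atp6 and mt-Co2 was the sum less spread than both of its rows. For mt-Atp6 with Gm10925 the sum was 118, 125 and 118 CPM in PBS_Tm and 174, 159 and 167 in EV_Tm, and the coefficient of variation in EV_Tm was 4.75%, against 18.6% for mt-Atp6 alone. The sum was 1.38-fold higher (edgeR adjusted p = 7.36e-09), a smaller rise than that of mt-Atp6 alone. For mt-Co2 with Gm28661 the sum was 167, 168 and 163 CPM against 195, 202 and 196, 1.19-fold (edgeR adjusted p = 1.29e-05), and its coefficient of variation in EV_Tm was 1.95%, against 8.15% for mt-Co2 alone. For mt-Co3 with Gm28437 it was 109, 119 and 117 CPM against 154, 141 and 155, 1.30-fold (edgeR adjusted p = 3.92e-07). The sum for mt-Nd4l rose (0.40 ± 0.11, SE, on the log2 scale) and that for mt-Nd3 did not pass (0.16 ± 0.09, edgeR adjusted p = 0.127). With sums in place of the single rows, 11 of 15 mitochondrial genes rose and 0 fell, again beside 22.6% of all tested genes called higher. The sums were chosen after the data had been seen.

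**Figure D4:**
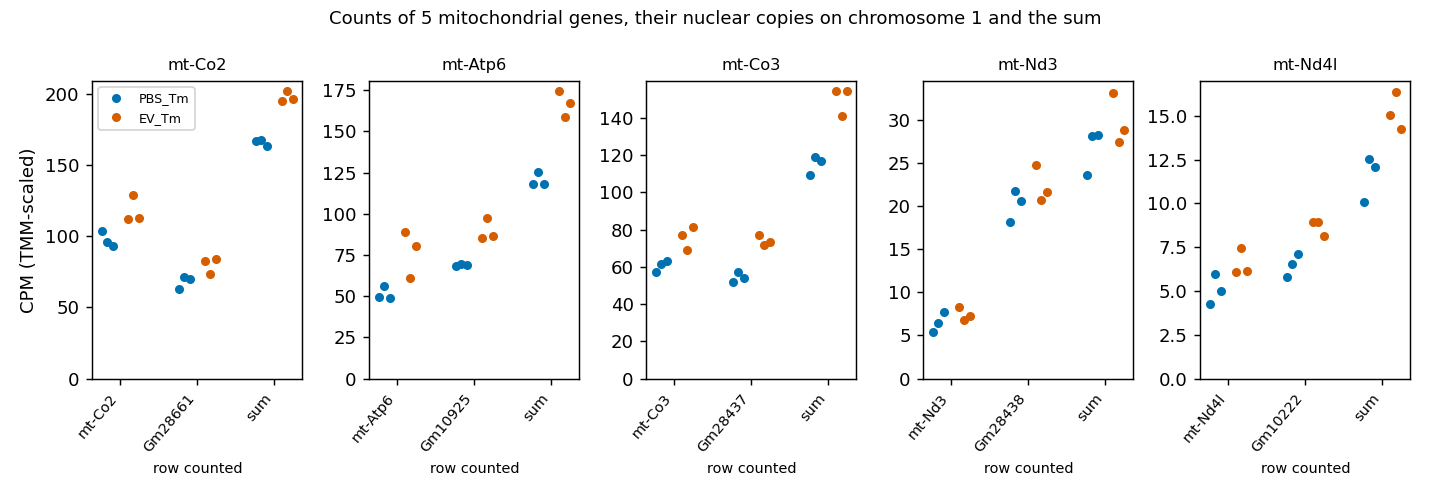
CPM per library of 5 mitochondrial genes, of their identical copies on chromosome 1 and of the sum of both, with 1 point per library (blue PBS_Tm, orange EV_Tm). The sums of mt-Co2, mt-Atp6, mt-Co3 and mt-Nd4l lie apart between the groups, and those of mt-Nd3 overlap.

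The nuclear partners of the mitochondrial subunits were mostly higher or not called. Of 77 nuclear genes listed with the respiratory subunits 50 rose and 1 fell, where 22.6% of all tested genes rose. Their median log2 fold change was 0.24. The lists also hold genes that do not encode subunits, for an inhibitor of the ATP synthase and an assembly factor. In complex I 16 of 36 rose and 0 fell, and Ndufb3 went from 15.3 ± 1.1 to 26.3 ± 0.4 CPM (SD, n = 3 for each group). In complex III 6 of 9 rose, with the largest difference in Uqcrh (3.79-fold), and Uqcrc2 fell by 0.16 ± 0.05 on the log2 scale. In complex IV 11 of 12 rose, all but Cox7a2l, and Cox6b1 was 1.86-fold higher. In complex V 14 of 16 rose, all but Atp5b and Atp5f1, and Atp5g3, which encodes the membrane ring subunit, had 141, 152 and 131 CPM against 229, 231 and 225. In complex II, which has no mitochondrially encoded subunit, Sdha, Sdhc and Sdhd rose and Sdhb did not pass.

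The listed genes that copy and express the mitochondrial genome had more falls than rises. Most proteins of the mitochondrial ribosome were not in the lists used. Of 116 tested genes for mitochondrial DNA upkeep, transcription, RNA processing, RNA modification, translation and tRNA charging, 56 fell and 20 rose, with a median of -0.19, where 24.7% of all tested genes fell. In transcription, Polrmt, the mitochondrial RNA polymerase, rose from 49.4, 43.3 and 44.2 CPM to 59.0, 62.8 and 60.1 (1.33-fold, edgeR adjusted p = 4.77e-06). It was the only 1 of 11 transcription genes that rose. Tfb2m, Tefm, Mterf3, Tfb1m and 1700021F05Rik fell, among them Mterf3, a regulator of mitochondrial transcription and ribosome assembly, by 0.39 ± 0.08 on the log2 scale. Tfam, which packages mitochondrial DNA and starts its transcription, had 64.3, 68.1 and 68.7 CPM in PBS_Tm and 66.2, 69.8 and 62.5 in EV_Tm, overlapping (log2 fold change -0.02 ± 0.06, edgeR adjusted p = 0.800).

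Of 19 genes for mitochondrial DNA replication and its nucleotide supply 6 rose (31.6%) and 9 fell (47.4%), where 22.6% of all tested genes rose and 24.7% fell. Polg, the catalytic subunit of the mitochondrial DNA polymerase, rose 1.15-fold, and Slc25a36, a pyrimidine nucleotide carrier, 1.23-fold. Twnk, the replicative helicase, had 60.3, 54.0 and 51.2 CPM against 62.1, 59.9 and 61.7, and passed narrowly (edgeR adjusted p = 0.0449). Its groups overlapped, and the call was lost without any 1 of 5 libraries: adjusted p was 0.166 and 0.219 without PBS_Tm replicates 2 and 3, and 0.133, 0.0787 and 0.119 without EV_Tm replicates 1, 2 and 3. Rrm2b, a ribonucleotide reductase subunit, was 2.08-fold lower, at 41.4, 44.8 and 47.0 CPM in PBS_Tm and 22.1, 22.8 and 19.3 in EV_Tm. The mitochondrial pyrimidine carrier gene Slc25a33, named after its value was seen, was 1.83-fold lower.

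Of 21 tested genes for mitochondrial RNA processing, stability and decay 11 fell (52.4%) and 2 rose (9.52%), again beside 24.7% and 22.6% of all tested genes. Both that rose, Hsd17b10 (1.28-fold) and 1110008L16Rik (1.35-fold), encode subunits of the enzyme that cuts tRNAs from the transcripts at their 5′ ends, while Trmt10c, which encodes the remaining subunit, was 1.43-fold lower. Mtpap, the polymerase that adds poly(A) tails to mitochondrial mRNAs, fell from 45.5, 52.6 and 47.4 CPM to 31.6, 30.3 and 32.4 (1.54-fold lower, edgeR adjusted p = 4.00e-08). Lrpprc, which binds and stabilises mitochondrial mRNAs, fell by 0.16 ± 0.04 on the log2 scale (edgeR adjusted p = 0.00205). Slirp, its binding partner, had 0 to 4 counts per library and was not tested. Pnpt1, a mitochondrial RNA-degrading enzyme, fell by 0.19 ± 0.06 (edgeR adjusted p = 0.0129), a call lost without PBS_Tm replicate 3 (adjusted p = 0.0777) or EV_Tm replicate 2 (0.0692).

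Of 26 genes for modification of mitochondrial tRNA and rRNA 16 fell (61.5%) and 1, Gtpbp3, rose, against 24.7% and 22.6% of all tested genes, shares that also apply to the lists that follow. Gtpbp3, which modifies the wobble base of some mitochondrial tRNAs, had 59.0, 57.0 and 53.4 CPM in PBS_Tm and 88.0, 88.0 and 88.9 in EV_Tm (1.56-fold, edgeR adjusted p = 2.20e-10). Trnt1, which adds the CCA end to tRNAs, was 1.31-fold lower. Of 18 listed genes of mitochondrial translation 6 rose and 6 fell, 33.3% in each direction and not far from the shares over all genes. Oxa1l, which inserts mitochondrially made subunits into the inner membrane, was 1.27-fold higher and the initiation factor Mtif2 1.34-fold lower. For aminoacyl-tRNA synthetases and other genes of tRNA charging that serve mitochondria 4 of 22 rose, Lars2 with the smallest adjusted p, and 10 fell. Gars, which also serves the cytosol, went from 752 ± 11 to 446 ± 5 CPM (SD, n = 3 for each group). Lars2 had 290, 293 and 309 CPM against 439, 373 and 333, with a wide spread in EV_Tm. Of 8 tested regulators of mitochondrial biogenesis 0 rose and 5 fell: Pprc1, Nrf1, Gabpa, Gabpb1 and Esrra, with Gabpb1, part of the nuclear respiratory factor GABP, 1.51-fold lower (edgeR adjusted p = 3.65e-08).

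**Figure D5:**
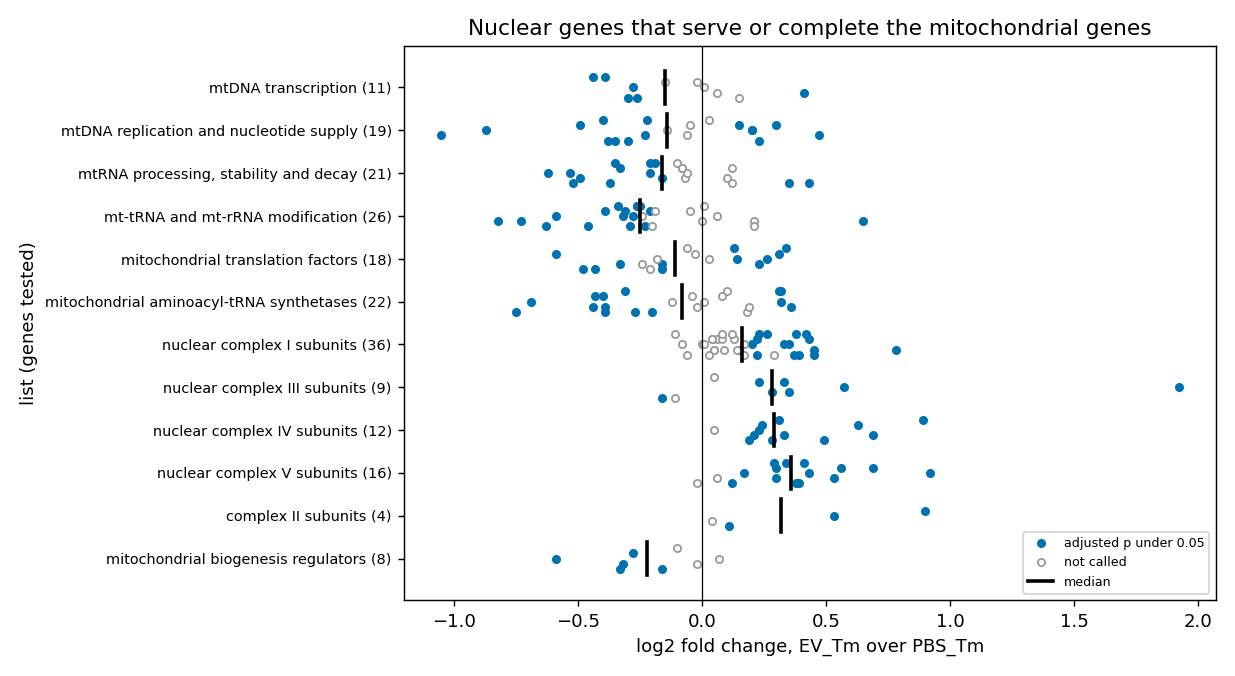
Log2 fold change of EV_Tm over PBS_Tm for each tested nuclear gene, by list, with filled points for an adjusted p under 0.05 and a bar at the list's median. The medians of the lists of respiratory subunits lie between 0.16 and 0.36, and those of the other lists between -0.25 and -0.08.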

How the data were processed

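RNA-seq counts of 6 libraries were used. Reads were mapped by the authors with HISAT2 2.2.1 once adaptors had been cut off, per the labels' protocols; featureCounts 2.0.6 is named in the submitters' processing notes. The deposited counts per gene are raw. Gene positions and lengths in the deposited table are other values, measured in bases. The notes name mm39, but chromosome, start, end and strand of all 37 mitochondrial genes and of the 8 nuclear copies printed equal GENCODE M21 on GRCm38 (98.33% over all shared IDs), so coordinates are read as GRCm38. Handling of strand and of reads with several positions is not given in the sources used here.

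EV_Tm and PBS_Tm, grouped by their labels, were compared with edgeR 4.0.16 (R 4.3.3; TMM, filterByExpr, quasi-likelihood F test, Benjamini-Hochberg over 16844 genes). SE is the fold change over the root of F. CPM values use TMM-scaled library sizes, except shares, sums over the cell-type marker lists and limits for a count of 0. Shares were compared by exact two-sided permutation. Copies were aligned with Biopython 1.88, and 50-base windows searched in GENCODE M21 transcripts on both strands. In a simulation with the same 2 groups, only 200 of 16844 genes were changed. Of 50 genes changed 1.25-fold 42% were recovered, and 98% of those changed 4-fold, and 6.94% of calls were false. In the real comparison 47.4% of tested genes were called, so these rates need not hold for it.

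The members and lists were chosen with earlier results of these data known. All mitochondrial genes are accounted for. Nuclear genes named are Polrmt, Tfam, Twnk, Polg, Lrpprc, Slirp, Pnpt1 and Mtpap, the gene of smallest adjusted p in each direction of each list, and members where 5 or fewer moved or did not pass, apart from some that are not reported here; Trmt10c and Slc25a33 were named after their values were seen. Same-numbered libraries correlated by -0.0426, 0.0163 and -0.0141 in their deviations from group means, so numbers were not treated as pairs. Libraries of 1 group differed by a mean chi-square per gene of 3.59 to 7.22, above sampling noise, and all were kept. Alternatives were DESeq2 1.42.0, limma-voom (limma 3.58.1), other scalings, filters and denominators, the replicate block and leaving out each library.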

Additional observations from a re-analysis of the deposited data

How the results depend on the processing

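Scaled to the mitochondrial counts, 5 genes were higher and 3 lower in place of 10 and 0, and the log2 fold changes of mt-Rnr2 (-0.13), mt-Co1 (-0.12), mt-Nd6 (-0.10) and mt-Cytb (-0.03) changed sign, since this scale removes the shared rise. Under the other alternatives 9 to 12 mitochondrial genes were higher and 0 lower, with 9 or 10 when 1 library was left out. The sign also changed for mt-Rnr1 on plain library size (0.01), without PBS_Tm replicate 3 (0.00) and without EV_Tm replicate 2 (0.03), and for Tfam on plain library size (0.02) and without EV_Tm replicate 3 (0.02), all far from the threshold. Over the fits without 1 library these log2 fold changes ran from -0.07 to 0.03 for mt-Rnr1 and from -0.07 to 0.02 for Tfam. Divided by TMM-scaled library size, the difference in share was 0.344 percentage points for all mitochondrial genes and 0.341 for mRNA genes. Of nuclear respiratory subunits 2 fell with no filter, and 1 to 2 when 1 library was left out. With the replicate block 10 mitochondrial genes were higher, mt-Nd4l passed (adjusted p = 0.0436) and mt-Co1 did not (0.146). Low counts limit the precision for mt-Atp8, mt-Nd3 and mt-Nd4l, and why 21 tRNA genes had 0 counts was not tested.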
